A study of Mus musculus with 14 samples.

Results

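Otp and Sim1 mark a family of hypothalamic neurons that use glutamate and release peptides. OTP is a homeodomain transcription factor, and SIM1 is a basic helix-loop-helix PAS factor that binds DNA together with ARNT2. Both act in the development of neurons of the paraventricular and supraoptic nuclei, including those that make oxytocin, vasopressin, corticotropin-releasing hormone and thyrotropin-releasing hormone, and reduced dosage of Sim1 is a known cause of obesity in mice and people. The cells described here are the glutamatergic neurons with Otp or Sim1 transcripts but little or no Trh, the gene of the thyrotropin-releasing hormone precursor.

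They came from droplet single-cell RNA sequencing (Drop-seq) of lateral hypothalamic tissue punched from wildtype C57BL/6J male mice, with 1 mouse per library. All mice had free access to water under a reversed light cycle. The 7 control mice ate a chow matched in taste to the diet of the 7 high fat diet mice, and the sources used here do not state age or time on the diet. Replicate numbers follow the order of listing within a diet and pair no mice across diets.

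Members were chosen by measured values, as barcodes with at least 1000 unique molecular identifiers (UMIs, each a counted RNA molecule) and at most 20% mitochondrial UMIs, which also met a set of conditions on named genes. These were Slc17a6, the vesicular glutamate transporter, at 1 UMI or more and above the sum of the GABA genes Gad1, Gad2 and Slc32a1. Hcrt and Pmch, the peptide genes of hypocretin and melanin-concentrating hormone neurons, each had to lie under 0.5% of UMIs, Trh under 3 UMIs, and Otp plus Sim1 at 2 UMIs or more. The rule kept 205 of 28410 barcodes, or 205 of the 1603 that met its conditions on depth, transmitter, Hcrt and Pmch. The remainder were 131 Trh neurons with 3 or more Trh UMIs and 1267 called other glutamatergic neurons below, with under 2 UMIs of Otp plus Sim1 and under 3 of Trh.

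The 14 tables held 147470 to 5611524 UMIs each. Members came from 11 mice, and 7 mice had at least 10 of them, with 187 in all. These 7 were control replicates 2, 3, 4 and 5, with 11, 37, 31 and 20 members, and high fat diet replicates 1, 2 and 4, with 27, 42 and 19. Scrublet called 191 of 15005 scored barcodes (1.27%) doublets, 2 members among them, and these were kept except where stated. While 41 barcode sequences occurred in more than 1 library, 0 were members. Earlier work on these tables had set 3 mice apart from the rest, control replicates 1 and 2 with replicate 1 of the high fat diet. In the members this showed in Pcsk1n, the granin-like gene proSAAS, at 414 counts per 1e6 UMIs (CPM) in control replicate 2 and 225 in high fat diet replicate 1, against 1418 to 1630 CPM in the other 5 mice tested.

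Otp was more often detected than Sim1. Of the 205 members, 103 had Otp alone, 10 Sim1 alone and 92 both. Members with exactly 2 UMIs of the pair numbered 80, members with 3 UMIs 33, and members with 4 or more 92, up to 16. Just outside the limit lay 132 glutamatergic barcodes with 1 UMI. These were shallower, with a median of 4249 UMIs against 6158 in the members, 3977 in all other glutamatergic neurons and 6195 in Trh neurons. Depth therefore moved with membership, and with at least 2000 UMIs per barcode 177 genes set members apart from other glutamatergic neurons, in place of the 213 given below. At the other limit, 18 members had 1 or 2 Trh UMIs, and 75 of the 131 Trh neurons (57.3%) themselves reached 2 UMIs of Otp plus Sim1.

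The genes of the rule are given as a description, without a test. Otp stood at a lowest, median and highest level of 376, 449 and 640 CPM in the summed members of the 7 mice, against 7.49, 20.8 and 27.9 CPM in their other glutamatergic neurons. Sim1 stood at 92.0, 111 and 209 CPM against 0, 6.49 and 14.7 CPM. Slc17a6 was lower in the members of each mouse, at 955 ± 162 CPM (SD, n = 7 mice) against 1254 ± 232. CPM here are scaled to all UMIs and not to length, so they compare cells for 1 gene and not genes with each other.

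The other 4 markers that go with the label were met in part. Ebf3, an early B-cell factor gene, stood at 52.2 ± 43 CPM in members and 17.9 ± 11.3 CPM in other glutamatergic neurons (SD, n = 7), higher in 6 of 7 mice. Adcyap1, the gene of the peptide PACAP, stood at 137 ± 101 and 79.5 ± 37.4 CPM, higher in 5 of 7 mice. Nhlh2, a helix-loop-helix factor gene, gave 41.5 ± 23.4 and 39.1 ± 16.6 CPM, and Nrn1, which encodes the cell surface protein neuritin, gave 334 ± 42.0 and 419 ± 101 CPM. For Nhlh2 the mice were split, 4 higher and 3 lower, and Nrn1 was lower in the members of 6 of 7 mice, so these genes did not set the members above other glutamatergic neurons.

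Hcrt UMIs were not confined to hypocretin neurons, and their source in other barcodes was not tested. At least 1 Hcrt UMI was seen in 44.9% of members, 35.9% of other glutamatergic neurons and 26.6% of 2974 oligodendrocyte barcodes, cells that do not make hypocretin, at median depths of 6158, 3977 and 1456.5 UMIs. After thinning to 3000 UMIs the share was 28.6% in members and 26.2% in other glutamatergic neurons, and it was 18.2% in oligodendrocyte barcodes thinned to 1000. Otp and Sim1 were near 0 in the same oligodendrocyte barcodes, with a UMI in 0.134% and 0.0336%.

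The share of members among glutamatergic barcodes was set beside diet in the 12 mice with at least 10 such barcodes. It ran from 0 to 28.2% on control chow and from 3.02 to 20.0% on the high fat diet, and the diets overlapped over most of that range. Control replicate 3 was highest at 28.2% (exact binomial 95% interval 20.7 to 36.8%). Control replicate 6 had 0 members of 22 barcodes, which allows a share of up to 13.6% by the limit of 3 counts and 15.4% by the exact binomial interval. The means were 13.0 ± 10.2% and 9.72 ± 6.07% (SD, n = 6 mice each), and the difference did not pass (two-sided exact permutation p = 0.513). Within pool 1, 1 of the 2 pools in which the libraries were sequenced, the means were 14.8 and 8.52% (exact permutation p = 0.4), and within pool 2 they were 11.2 and 10.9% (exact permutation p = 1). With 3 mice against 3 the test cannot go below 0.1. Without the 3 mice that stand apart the means were 15.5 and 9.20% (exact permutation p = 0.333), and over all barcodes that met the depth limits they were 1.81 and 1.83%.

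**Figure D1:**
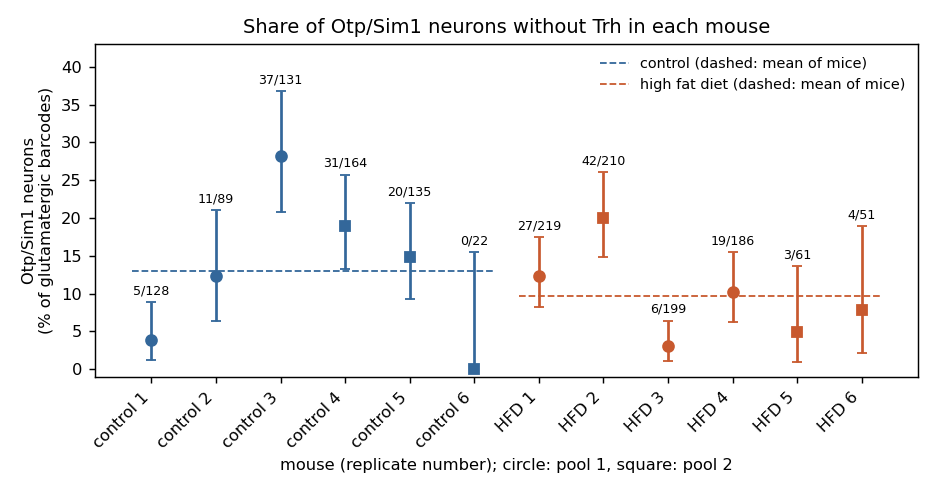
Share of Otp/Sim1 neurons without Trh among glutamatergic barcodes in each mouse (y axis, percent), with exact binomial 95% intervals that cover counting error only and members over glutamatergic barcodes printed above each. Blue is control, orange is high fat diet (HFD), circles are pool 1 and squares pool 2, and dashed lines are means of mice at 13.0% and 9.72%. The mice of each diet span most of the range of the other.

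Members of the 4 control mice with at least 10 of them had a median of 6562, 6381, 7060 and 6578.5 UMIs, and those of the 3 high fat diet mice 4526, 7875 and 3714. High fat diet replicate 2 lay above all control mice and the other 2 lay below them. On the log10 scale the means of the diets stood in a ratio of 0.767, high fat diet to control (exact permutation p = 0.286, two-sided), where 4 mice against 3 cannot go below 0.0571. In pool 2, with 1 high fat diet mouse, the ratio was 1.16.

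Members were next compared with the other glutamatergic neurons of the same mice, to see which genes outside the rule set them apart. UMIs were summed per mouse and class and tested with edgeR's quasi-likelihood test with the mouse as a block, over 7222 genes in 7 mice. The threshold was a p of 0.05 after Benjamini-Hochberg adjustment. Of the genes tested 87 (1.2%) were called higher and 126 (1.74%) lower in members, and 85 and 124 remain when the genes of the rule are set aside. Each library is a separate mouse. With the mouse as a block, the test sets the difference between the classes within a mouse against its spread from mouse to mouse.

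Transcription factors were among the genes called in both directions. On a list of factors of the Otp and Sim1 lineage, 4 of 6 tested genes outside the rule and the markers were higher and 0 lower, with a median log2 difference of 1.54 against 0.00 over all genes tested. Ebf1, a factor of the same family as Ebf3 at chr11:44618100-45008096 (RefSeq, GRCm38.p6), ran over 36.9, 74.4 and 124 CPM (lowest, median, highest of 7 mice) in members against 3.43, 7.22 and 24.5 CPM in the others. The lowest member value lay above the highest of the others, and the log2 difference was 2.83 ± 0.28 (SE; edgeR adjusted p = 5.46e-14). Pou3f2, a POU factor needed for neuroendocrine neurons of the paraventricular nucleus, ran over 12.3, 60.3 and 133 CPM against 15.6, 22.8 and 36.0 CPM. Its groups overlapped, 5 of 7 mice were higher in members, and the log2 difference was 1.79 ± 0.33 (SE; edgeR adjusted p = 0.00155).

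Fezf1, a zinc finger factor of the developing forebrain, was higher in 6 of 7 mice, at 59.4 ± 34.4 CPM against 21.1 ± 10.2 (SD, n = 7), a log2 difference of 1.61 ± 0.26 (SE; edgeR adjusted p = 2.09e-06). Ebf2 was also called higher, at 49.8 ± 38.9 against 18.3 ± 6.69 CPM in 6 of 7 mice (log2 difference 1.48 ± 0.29 SE). It lost its call without control replicate 4 (log2 difference 1.13, edgeR adjusted p = 0.0784). The other 3 kept theirs when any 1 mouse was left out.

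On a second list, of 37 factors that mark other hypothalamic and forebrain neurons, 10 had enough UMIs to be tested. Of these, 7 were lower in members and 0 higher, with a median log2 difference of −3.13. Over all genes tested 1.74% were lower and 1.2% higher. A factor near 0 in members could enter the test only through its UMIs in the other neurons. The direction and median of this list were therefore largely set by which genes could be tested, and are given as a description. Meis2, a homeodomain factor, ran over 118, 253 and 396 CPM in other glutamatergic neurons and was at 0 in the members of 6 of the 7 mice. The 6 Meis2 UMIs found in members all lay in 1 barcode of high fat diet replicate 1, which also held the only 3 Samd3 UMIs of the members. Tcf7l2, the factor of the Wnt pathway, had 1 UMI in the members' 1290041 against 337 in 4008365 in the others, which makes the others 108 times higher with an exact interval of 19.3 to 4296. Mab21l1, outside that list and also at 1 UMI against 313, was 101 times higher in the others (17.9 to 3991). Both intervals cover counting error only, and levels this low make the sizes of the fitted log2 differences, −6.13 and −6.01, depend on the prior count.

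Further called factors of that list were Tbr1, Lhx9, Fezf2 and Lhx1. Tbr1, the T-box factor of cortical glutamatergic neurons, and Lhx9, a LIM homeodomain factor, each had 1 UMI in all 205 members, against means of 36.9 ± 14.5 and 31.3 ± 7.55 CPM in the others (SD, n = 7). Across Meis2, Tcf7l2, Mab21l1, Samd3, Lhx9 and Tbr1, 5 of 205 members had any UMI and 1 had UMIs of 2 or more of them. Lhx1 was at 26.0 ± 15.0 against 60.1 ± 22.1 CPM, and lost its call without high fat diet replicate 2 (log2 difference −0.96, edgeR adjusted p = 0.0797).

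To show the regulatory sequence next to these genes, the promoter windows of the rule genes and of 3 genes higher in members follow, each 300 bases around an annotated start (RefSeq, GRCm38.p6), written in the direction of the gene. Capitals mark ACGTG on either strand, the core that SIM1 with ARNT2 and other bHLH-PAS factors can bind, and TAATTA, a homeodomain core. Otp is at chr13:94875386-94875685, + strand. Sim1 is at chr10:50895401-50895700, + strand. Pou3f2 is at chr4:22488317-22488616, − strand. Ebf1, the second of its 2 windows, is at chr11:44619978-44620277, + strand. Irs4 is at chrX:141725168-141725467, − strand.
Otp: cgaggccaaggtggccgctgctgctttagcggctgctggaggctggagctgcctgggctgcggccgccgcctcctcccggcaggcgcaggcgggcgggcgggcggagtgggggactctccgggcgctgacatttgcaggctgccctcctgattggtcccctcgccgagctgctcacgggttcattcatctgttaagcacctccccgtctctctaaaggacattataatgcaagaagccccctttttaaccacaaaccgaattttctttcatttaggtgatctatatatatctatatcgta
Sim1: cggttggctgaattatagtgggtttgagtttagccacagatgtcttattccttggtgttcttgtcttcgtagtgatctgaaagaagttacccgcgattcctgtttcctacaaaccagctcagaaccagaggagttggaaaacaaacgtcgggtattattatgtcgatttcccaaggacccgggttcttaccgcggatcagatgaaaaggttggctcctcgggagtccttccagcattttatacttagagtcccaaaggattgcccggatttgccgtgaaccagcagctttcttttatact
Pou3f2: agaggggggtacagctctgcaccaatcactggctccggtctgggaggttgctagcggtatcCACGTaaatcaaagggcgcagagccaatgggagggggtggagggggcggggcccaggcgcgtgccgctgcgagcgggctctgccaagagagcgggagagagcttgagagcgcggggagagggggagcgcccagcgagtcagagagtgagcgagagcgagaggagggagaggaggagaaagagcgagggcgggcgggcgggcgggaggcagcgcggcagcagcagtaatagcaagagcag
Ebf1: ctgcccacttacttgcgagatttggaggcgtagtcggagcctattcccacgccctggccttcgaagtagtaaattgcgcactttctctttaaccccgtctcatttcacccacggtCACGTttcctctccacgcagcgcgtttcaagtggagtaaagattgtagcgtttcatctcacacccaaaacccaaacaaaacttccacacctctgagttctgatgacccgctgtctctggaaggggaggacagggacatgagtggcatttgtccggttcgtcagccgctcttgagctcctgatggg
Irs4: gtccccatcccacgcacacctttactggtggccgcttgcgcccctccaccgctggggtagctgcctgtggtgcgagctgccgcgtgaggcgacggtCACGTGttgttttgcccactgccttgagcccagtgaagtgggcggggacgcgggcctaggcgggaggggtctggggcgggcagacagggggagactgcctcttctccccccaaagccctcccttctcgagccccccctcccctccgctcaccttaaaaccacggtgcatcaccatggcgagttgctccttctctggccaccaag
The Otp and Sim1 windows held neither motif, Pou3f2 and this Ebf1 window held ACGTG once, the other Ebf1 window held neither, and Irs4 held it on both strands as the palindrome it forms there.

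Of 32851 such windows in the genome, 19.6% held ACGTG on either strand and 5.29% held TAATTA. Among the genes tested the shares were 26.3% and 2.65% of 7157 windows. The genes higher in members had 71 windows for 54 of 85 genes, with ACGTG in 17 (23.9%) and TAATTA in 4 (5.63%). The genes lower in members had 133 windows for 92 of 124 genes, with ACGTG in 15 (11.3%) and TAATTA in 6 (4.51%). These matches describe the letters in the windows, and no test of the shares was made.

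Some genes of signalling were also called. Irs4, the insulin receptor substrate of the hypothalamus, was at 40.2, 61.3 and 111 CPM (lowest, median, highest) in members against 10.5, 22.3 and 38.0 CPM in the others. The levels did not overlap, and the log2 difference was 1.35 ± 0.27 (SE; edgeR adjusted p = 0.000385). Over all genes tested 1.2% were higher and 1.74% lower in members, with a median log2 difference of 0.00. Among hormone and peptide receptors 2 of 17 tested genes were higher and 0 lower, with a median log2 difference of 0.22. They were Calcr, the calcitonin receptor, at 30.9 ± 23.3 against 9.40 ± 4.76 CPM, and Prlr, the prolactin receptor, at 147 ± 117 against 74.3 ± 28.9 CPM (SD, n = 7). Calcr lost its call without control replicate 3 (edgeR adjusted p = 0.0515). Prlr lost it without control replicate 2 (edgeR adjusted p = 0.125) and without control replicate 4 (edgeR adjusted p = 0.0664). Glra1, a glycine receptor subunit, was higher in 6 of 7 mice, with a log2 difference of 1.21 ± 0.22 (SE; edgeR adjusted p = 4.58e-05).

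Of 21 tested imprinted genes, 4 were higher and 0 lower, with a median log2 difference of 0.18. The shares over all genes tested were 1.2% and 1.74%, with a median of 0.00. Peg10, a paternally expressed gene derived from a retrotransposon, stood at 178 ± 40.7 CPM in members and 90.8 ± 24.3 in the others (SD, n = 7), higher in 7 of 7 mice (log2 difference 1.02 ± 0.15 SE; edgeR adjusted p = 1.11e-07). Gnas, which encodes the stimulatory G protein subunit, stood at 5428 ± 1525 and 4052 ± 871 CPM, also higher in 7 of 7 mice (log2 difference 0.40 ± 0.06 SE; edgeR adjusted p = 1.26e-07). Asb4, a hypothalamic gene of an imprinted cluster, was at 109 ± 42.6 against 45.1 ± 22.5 CPM, higher in 6 of 7 mice. The fourth, Zdbf2, kept its call in 2 of 7 fits that left out a mouse, with adjusted p up to 0.236.

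Peptide and secretory genes were mixed. Of 17 tested neuropeptide genes 3 were higher (Crh, Gal and Calca) and 2 lower (Npy and Nppc), with a median log2 difference of 0.72. The shares over all genes tested were 1.2% and 1.74%, with a median of 0.00. Crh, the gene of corticotropin-releasing hormone, had UMIs in 13 members, and 5 members held 71.4% of them. It lost its call without high fat diet replicate 2 (log2 difference 2.11, edgeR adjusted p = 0.103). Calca, the gene of calcitonin and its related peptide, had UMIs in 16 members and a log2 difference of 2.75 ± 0.48 (SE; edgeR adjusted p = 0.000559). It was not called without the 3 mice that stand apart (log2 difference 2.92, edgeR adjusted p = 0.0918).

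Gal was called higher but lost the call without control replicate 2, control replicate 3 or high fat diet replicate 2, with adjusted p of 0.123, 0.394 and 0.0846. Npy was lower in 6 of 7 mice and lost the call without control replicate 5 (log2 difference −2.12, edgeR adjusted p = 0.07). Nppc lost it without control replicate 4 (edgeR adjusted p = 0.0523) and without control replicate 5 (edgeR adjusted p = 0.0635). The processing enzymes Pcsk2, a prohormone convertase, and Pam, which amidates peptides, were higher in 7 of 7 mice each, at 320 ± 104 against 208 ± 53.6 CPM and 558 ± 168 against 398 ± 107 CPM (SD, n = 7). Of 14 granin and processing genes these 2 were higher and Cadps was lower, against 1.2% and 1.74% of all genes tested. Cadps kept its call in 2 of 7 fits that left out a mouse. Against Trh neurons, compared below, 0 of 13 such genes were called higher and 2 lower, Pcsk2 and the granin gene Chgb. Of 5 fits that left out a mouse, Pcsk2 lost that call in 1 and Chgb in 4.

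Of 13 tested calcium binding genes 2 were higher (Ncald and Necab1) and 1 lower (Hpcal1), with a median log2 difference of 0.29. The shares over all genes tested were 1.2% and 1.74%, with a median of 0.00. Ncald, the calcium sensor neurocalcin delta, was higher in 7 of 7 mice at 935 ± 304 against 478 ± 102 CPM (log2 difference 0.96 ± 0.08 SE; edgeR adjusted p = 7.25e-16). Necab1 had a log2 difference of 0.59 and Hpcal1 one of −0.48, and 6 and 5 of the 7 fits that left out a mouse lost their calls. Of 31 tested ion channel genes 3 were lower (Kcnc1, Scn8a and Cacna2d1) and 0 higher, and Kcnc1, a fast potassium channel, was the one that kept its call without any 1 mouse.

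Nxph1, a neurexophilin that binds neurexins, was lower without overlap, at 0, 15.3 and 41.9 CPM (lowest, median, highest) in members against 59.3, 88.7 and 147 CPM (log2 difference −2.18 ± 0.25 SE; edgeR adjusted p = 1.09e-10). All 8 oligodendrocyte markers tested were lower in members too. Their summed level ran from 177 to 1174 CPM in members, from 682 to 5338 CPM in other glutamatergic neurons and from 175 to 320 CPM in Trh neurons. Mag, the myelin-associated glycoprotein, was at 23.9 ± 12.9 against 110.5 ± 86.8 CPM (SD, n = 7), lower in 6 of 7 mice, with a log2 difference of −2.10 ± 0.26 (SE; edgeR adjusted p = 1.43e-08). Other glutamatergic neurons therefore carried more oligodendrocyte RNA than members, and the part of this in the other differences was not tested. Of 6 endothelial markers 1 had a UMI in members, and Cldn5, Flt1, Pecam1, Cdh5 and Ly6c1 were at 0. Of 7 astrocyte markers 5 had a UMI in members and Aqp4 and Gfap were at 0. The summed astrocyte level ran from 35.3 to 230 CPM in members and from 51.4 to 129 CPM in other glutamatergic neurons, and the 2 markers with enough UMIs to be tested were not called.

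**Figure D2:**
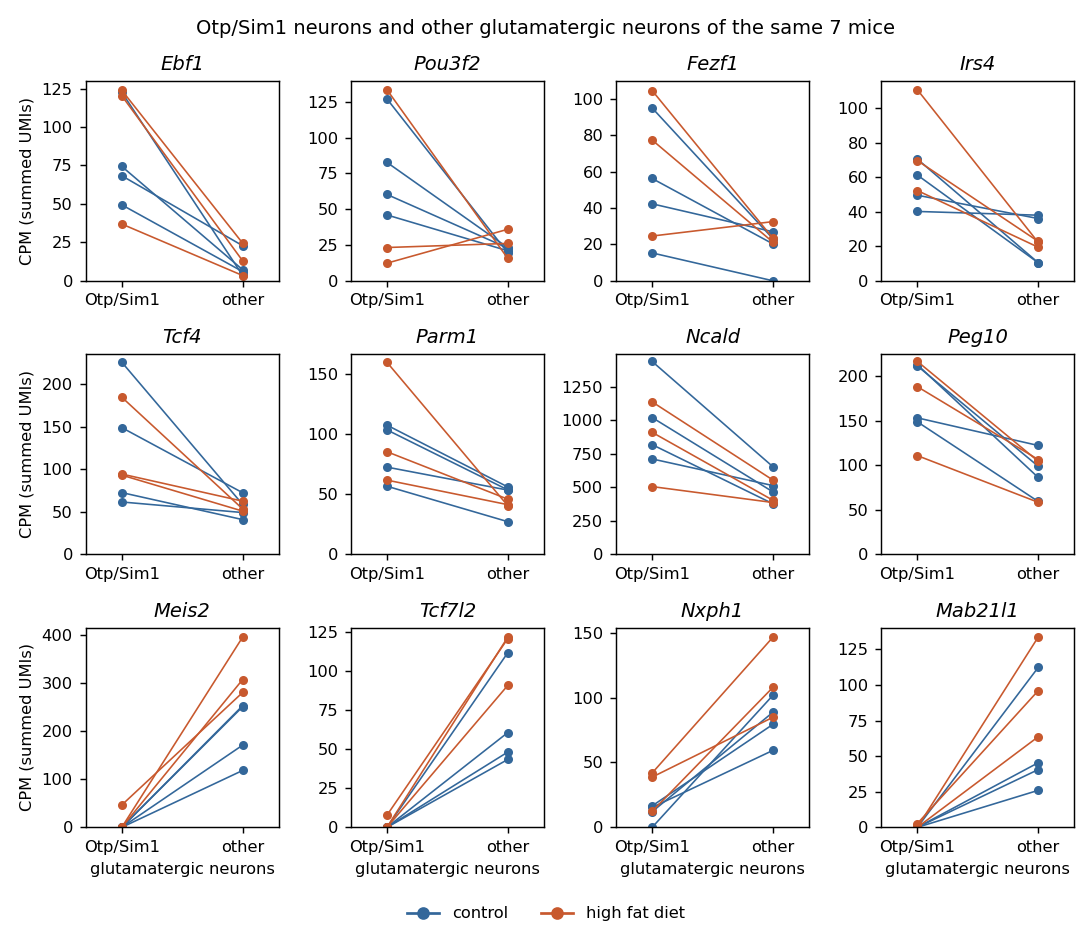
Levels of 12 genes in Otp/Sim1 neurons and in other glutamatergic neurons of the same 7 mice (y axis, CPM of summed UMIs; each line is a mouse, blue control and orange high fat diet). Ebf1, Irs4, Tcf4, Ncald and Peg10 were higher in the Otp/Sim1 neurons of 7 of 7 mice, and Meis2, Tcf7l2 and Nxph1 were at most 46.5, 7.74 and 41.9 CPM there and lower in 7 of 7.

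Members and Trh neurons were compared in the 5 mice with at least 10 of both (control replicates 3 and 4 and high fat diet replicates 1, 2 and 4), with 156 members and 88 Trh neurons. Of 3691 genes edgeR called 17 (0.461%) higher and 24 (0.65%) lower in members, of which 16 and 23 are not genes of the rule. Levels of Otp, Sim1 and Trh are set by the rule: Otp stood at 471 ± 99.7 CPM in members and 261 ± 54.7 in Trh neurons, and Sim1 at 130 ± 44.9 and 120 ± 63.1 (SD, n = 5).

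Hpca, the calcium sensor hippocalcin, was at 327 ± 52.9 CPM in members and 99.1 ± 37.8 in Trh neurons (SD, n = 5). The lowest member value, 252 CPM, lay above the highest of the Trh neurons, 146 CPM, and the log2 difference was 1.54 ± 0.19 (SE; edgeR adjusted p = 1.38e-08). Id2, an inhibitor of helix-loop-helix factors, was higher in 5 of 5 mice at 128 ± 33.5 against 50.9 ± 18.7 CPM (log2 difference 1.51 ± 0.29 SE; edgeR adjusted p = 0.000517). Of 4 tested lineage factors outside the rule and markers, 2 were higher in members (Pou3f2 and Ebf2) and 0 lower, with a median log2 difference of 1.45 against −0.01 over all genes. Ebf1 and Fezf1 were not among the genes called here. Of the 37 factors of other neurons 1 was tested against Trh neurons and was not called. Low levels of those factors are thus not shown to be particular to members. Pou3f2 was at 62.4 ± 48.8 against 18 ± 18.5 CPM, in 4 of 5 mice (log2 difference 1.96 ± 0.45 SE; edgeR adjusted p = 0.00707). Tcf4, a helix-loop-helix factor, did not overlap, at 119 ± 46.6 against 37.4 ± 19.9 CPM, and lost its call without control replicate 4 (edgeR adjusted p = 0.0858).

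Genes lower in members than in Trh neurons included Rab3b, a vesicle GTPase, at 139 ± 43.6 against 571 ± 205 CPM, with no overlap between 209 CPM at most in members and 271 CPM at least in Trh neurons (log2 difference −1.98 ± 0.18 SE; edgeR adjusted p = 2.55e-10). Sdc2, the proteoglycan syndecan 2, was at 134 ± 26.8 against 427 ± 136 CPM (log2 difference −1.63 ± 0.18 SE; edgeR adjusted p = 1.37e-10). Onecut2, a transcription factor, was at 62.2 ± 13.5 against 187 ± 57.4 CPM (log2 difference −1.59 ± 0.25 SE; edgeR adjusted p = 6.17e-06). The 2 cerebellins tested and called, Cbln1 and Cbln2, organisers of synapses, were lower at log2 differences of −1.13 ± 0.20 and −1.23 ± 0.19 (SE). Pnoc, the nociceptin precursor, was lower in 5 of 5 mice at 116 ± 23.3 against 276 ± 105 CPM (log2 difference −1.09 ± 0.20 SE; edgeR adjusted p = 0.000317). The marker Adcyap1 was at 150 ± 98.9 CPM in members and 313 ± 90.0 in Trh neurons, lower in 4 of 5 mice. Of the lists used above, 0 of 18 tested imprinted genes were called against Trh neurons in either direction. The same held for 10 listed calcium binding genes, 20 ion channel genes and 7 hormone and peptide receptors. Fewer mice and genes were tested here than against other glutamatergic neurons.

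Oxt, the oxytocin gene, was called higher in members than in Trh neurons, yet its level in members ran from 0 to 9505 CPM across the 5 mice and 3 of 5 mice were higher. Nearly all of it came from a few barcodes. In 5 of 205 members Oxt or Avp, the gene of vasopressin, made up at least 1% of UMIs. Oxt made up 12.5% of the UMIs of 1 barcode of control replicate 3, 9.76% in 1 of control replicate 4 and 16.6% in 1 of high fat diet replicate 3. Avp made up 11.5% and 10.6% in 2 barcodes of high fat diet replicate 2. Both genes are the defining transcripts of magnocellular neurons. A further 8 members of high fat diet replicate 2 had a single Avp UMI each. Without the 5 barcodes, an alternative chosen after seeing the data, Oxt had too few UMIs to be tested and 47 genes were called in place of 41. Against other glutamatergic neurons the same alternative called 179 genes in place of 213, and 8 of 55 named genes lost their calls. Gal was among them (log2 difference 0.79, edgeR adjusted p = 0.478).

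The members were not of 1 kind by peptide. Of the peptide genes examined, Penk, the enkephalin precursor, was found at 2 or more UMIs in 57 members (27.8%) from 10 mice. Adcyap1 reached 2 UMIs in 41 members, Tac1, the substance P precursor, in 36, Pnoc in 31, Pdyn, the dynorphin precursor, in 13, and Calca and Gal in 11 each. Sst, the somatostatin gene, reached it in 10 members and Crh in 9. Hcrt, seen in oligodendrocyte barcodes too as given above, also reached 2 UMIs in 40 members, so that count alone does not set a peptide apart from background. Penk and Tac1 reached 149 and 86 UMIs in a barcode, and 5 members held 39.3% of the Penk and 34.4% of the Tac1 UMIs of all members. Neither was called against other glutamatergic neurons. Penk was higher in 6 of 7 mice (log2 difference 1.42, edgeR adjusted p = 0.206) and Tac1 in 3 of 7 (0.74, edgeR adjusted p = 0.738). The overlap of Penk and Tac1 was 7 barcodes, 12.3% of those with Penk and 19.4% of those with Tac1, and that of Tac1 and Pnoc was 15 barcodes, 41.7% and 48.4%. Of the oligodendrocyte barcodes 0.672% had a Penk UMI and 1.78% a Tac1 UMI, against 33.2% and 19.5% of members. For Adcyap1, Pnoc, Pdyn, Calca, Gal, Sst and Crh the share of oligodendrocyte barcodes with a UMI ran from 0.0336% (Calca) to 1.21% (Gal), against 6.34% (Crh) to 33.2% (Adcyap1) of members, and oligodendrocyte barcodes were shallower, as given above.

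Fezf1 separated members with different accompanying genes. The 47 members with a Fezf1 UMI, from 9 mice, were deeper than the rest (median 8560 against 5553.5 UMIs), so shares are given after thinning to 3000 UMIs, in 47 and 135 barcodes. Calb2 and Calb1, the calcium buffers calretinin and calbindin, were seen in 91.5% and 74.5% of Fezf1 members against 45.2% and 33.3% of the rest. Cbln1 was seen in 55.3% against 16.3%, Tac1 in 48.9% against 11.1%, Pnoc in 36.2% against 15.6% and Ebf1 in 34.0% against 9.63%. The opposite held for Dlk1, a paternally expressed membrane protein of the Notch ligand family, in 14.9% against 48.9%, and for Pou3f2, in 2.13% against 20.7%. Before thinning, 3 of 47 Fezf1 members had a Pou3f2 UMI against 44 of 158 of the rest. In the 5 mice with enough barcodes of both, CPM of Calb1, Calb2, Cbln1 and Pnoc were higher in 5 and those of Dlk1, Pou3f2, Penk and Ebf3 lower in 5.

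Members with 2 or more Penk UMIs showed another set. Their depth was close to that of the rest (median 5553 against 6389.5 UMIs), and after thinning Dlk1 was seen in 56.9% against 33.6%, Pou3f2 in 27.5% against 11.5%, and Lmo1, a LIM-only factor, in 25.5% against 3.82%. By CPM, Dlk1 and Pou3f2 were higher in the Penk members of 5 of 7 mice each and lower in 2, and Lmo1 was higher in 6 of 7. Ebf1 was seen in 5.88% against 19.8% and was lower in CPM in the Penk members of 7 of 7 mice. These groupings were found in the same barcodes that they describe and carry no test. By diet, Fezf1 members made up 18.7 ± 8.59% of members on control chow (SD, n = 4 mice) and 21.9 ± 16.4% on the high fat diet (SD, n = 3), and Penk members 27.1 ± 9.23% and 24.5 ± 5.27%.

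**Figure D3:**
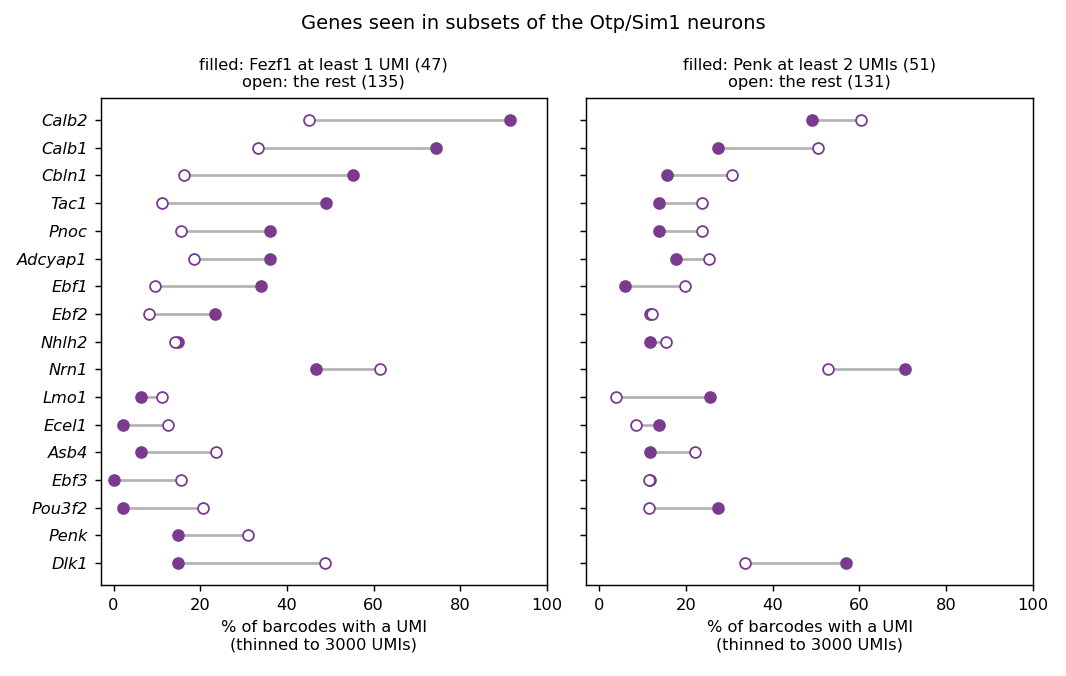
Share of members with at least 1 UMI of each gene after thinning to 3000 UMIs (x axis, percent), for members with a Fezf1 UMI (left, filled) and with at least 2 Penk UMIs (right, filled) against the remaining members (open). Fezf1 members were more often positive for Calb2, Calb1, Cbln1, Tac1 and Pnoc, and Penk members more often for Dlk1, Lmo1 and Pou3f2.

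Diet within the members was the comparison the study was built for. It was tested over 3762 genes in 4 control and 3 high fat diet mice, with the sequencing pool as a covariate. No gene passed by edgeR (0 of 3762, 0%), 70 genes had an unadjusted p under 0.05, and DESeq2 called 0. The levels of the diets did not overlap for 149 genes (3.96%). The genes of smallest p are therefore given as values, with adjusted p near 1 by edgeR.

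Cnih1, a cornichon protein of the secretory pathway, was at 153, 96.5, 103 and 127 CPM in control replicates 2 to 5 and at 209, 238 and 160 CPM in high fat diet replicates 1, 2 and 4. The diets did not overlap, and the log2 difference, high fat diet over control, was 0.90 ± 0.27 (SE; edgeR unadjusted p = 0.0035). Ndn, the imprinted gene necdin of the Prader-Willi region, was at 751, 1073, 926 and 1094 CPM against 1038, 2072 and 1280 CPM, a log2 difference of 0.63 ± 0.19 (SE). Its diets overlapped, and high fat diet replicate 2 was highest. The other 3 genes with high values on the high fat diet were Gda, Mdn1 and Epha4, at log2 differences of 1.05 ± 0.33, 1.07 ± 0.36 and 1.01 ± 0.34 (SE).

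In the other direction, Dusp11, a phosphatase acting on RNA, was at 92.0, 80.4, 82.7 and 63.5 CPM on control chow and 23.2, 39.3 and 24.6 CPM on the high fat diet. The diets did not overlap, with a log2 difference of −1.26 ± 0.45 (SE). Apmap, Lmo4, Kpna4 and Arhgap24 had log2 differences of −1.13 ± 0.38, −0.86 ± 0.29, −1.09 ± 0.38 and −0.99 ± 0.35 (SE). All 10 had the same sign in the difference of mean log2 CPM within each pool, which their choice from a fit with the pool as a covariate nearly fixes, and pool 2 held 1 high fat diet mouse.

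**Figure D4:**
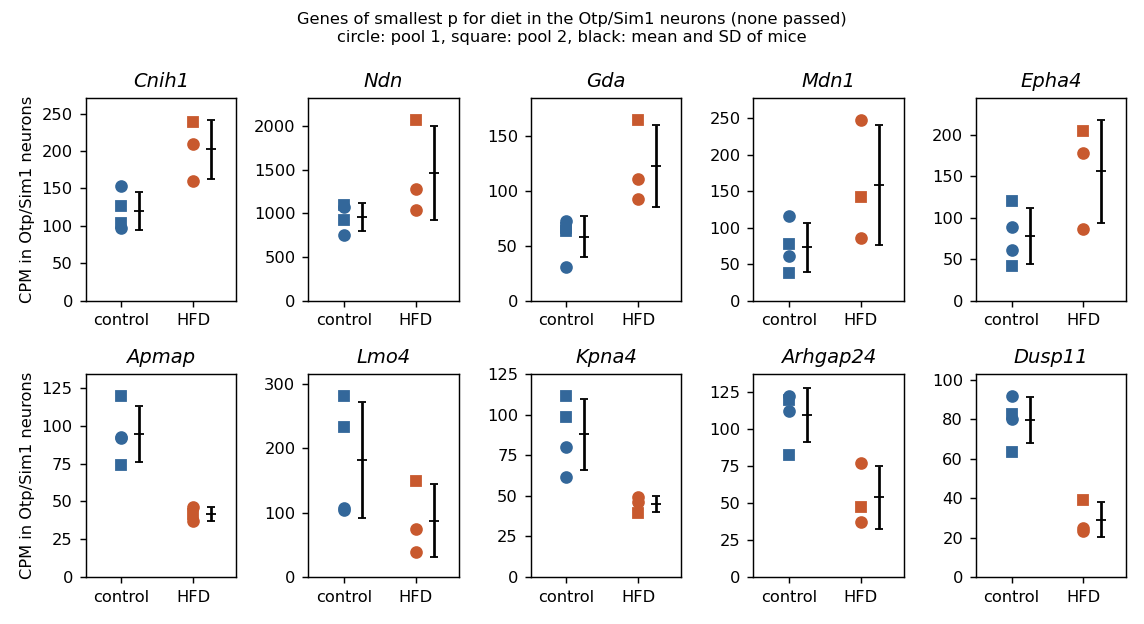
CPM in the summed Otp/Sim1 neurons of each mouse (y axis) for the 5 genes of smallest p in each direction, by diet (x axis, HFD is high fat diet). Circles are pool 1, squares pool 2, and black bars the mean and SD of 4 control and 3 high fat diet mice; the diets do not overlap for Cnih1, Gda, Apmap, Kpna4, Arhgap24 and Dusp11, and no gene passed.

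Otp and Sim1, whose summed UMIs chose the members, are given by diet without a test. Otp was at 437 ± 54.1 CPM on control chow (SD, n = 4) and 507 ± 116 CPM on the high fat diet (SD, n = 3), and Sim1 at 117 ± 35.3 and 148 ± 53.6 CPM. A limit in UMIs asks for a higher CPM in shallower barcodes. High fat diet replicate 4, with the lowest median depth of members among the mice tested, had the highest Otp level at 640 CPM. High fat diet replicate 1, next in depth at 4526 UMIs, had 449 CPM, within the control range of 376 to 501 CPM. The part of depth in these levels was not tested. The markers Nrn1 and Adcyap1 did not pass. Nrn1 was at 332 ± 55.9 and 337 ± 24 CPM (log2 difference 0.04 ± 0.22 SE), and Adcyap1 at 130 ± 84.9 and 145 ± 139 CPM (0.10 ± 0.73 SE). These errors leave room for a difference, most of all for Adcyap1.

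Trh, held under 3 UMIs per member by the rule, was at 0, 4.02, 8.27 and 0 CPM in control replicates 2 to 5 and at 62.0, 15.7 and 12.3 CPM in replicates 1, 2 and 4 of the high fat diet, too few UMIs to be tested. Of 14 tested neuropeptide genes 7 had values above and 7 below 0, with a median log2 difference of 0.03 against −0.01 over all genes. Penk stood at 670 ± 428 CPM on control chow and 586 ± 271 CPM on the high fat diet, and Tac1 at 472 ± 544 and 866 ± 790 CPM (SD, n = 4 and 3). For 18 imprinted genes the median was −0.05 with 4 above 0, and for 21 ion channel genes it was 0.16 with 12 above 0. No gene of these lists passed. Oligodendrocyte markers summed to a median of 585 CPM in members on control chow (highest 1174) and 394 CPM on the high fat diet (highest 1069).

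The difference of the diet effects between members and other glutamatergic neurons was tested as an interaction in the same 7 mice. Of 7222 genes edgeR called 0 (0%), 266 had an unadjusted p under 0.05, and DESeq2 called 0. Genes called in single alternatives, named here after their values were seen, were Calb2, when mice had at least 20 cells of each class (log2 difference of the diet effects 0.92, edgeR adjusted p = 0.0016), and Nts and Scg2 at −4.07 and 0.54, when control replicate 5 was left out. Calb2 was also called without high fat diet replicate 4 (edgeR adjusted p = 0.0124).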

How the data were processed

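The deposited values are raw counts of UMIs, 1 table of genes by barcodes per mouse, in whole numbers without normalization. The submitters' processing notes name STAR 2.4.2a, Picard 2.2.4, bcl2fastq 2.18.0.12 and the build mm10 (GRCm38). Not given in the sources used here are the counting tool, its annotation, its use of strand and the rule for keeping barcodes, so overlapping genes and close copies have less certain counts. The members, gene lists and rules were chosen with earlier results of these data known.

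Barcodes were selected as described, with Python 3.11.15, scanpy 1.11.5 and scipy 1.17.1. Scrublet ran on barcodes with at least 500 UMIs at an expected rate of 5%. Counts were summed per mouse and class where a mouse had at least 10 barcodes of it, and tested by the quasi-likelihood method of edgeR 4.0.16 under R 4.3.3 (TMM scaling, filterByExpr). DESeq2 1.42.0 was an alternative. The edgeR designs for class, diet and interaction were also run on simulated counts, with results not printed here. Standard errors were derived from the F statistics. Shares and depths were compared over mice with two-sided exact permutation tests. Oligodendrocyte barcodes had at least 10 UMIs of 8 oligodendrocyte markers and no UMI of Snap25, Syt1, Slc17a6, Gad1 or Gad2. Other neuron markers were not part of that choice.

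Genes named from the class comparisons were the 12 of largest log2 difference in each direction among those that passed with a mean of at least 50 CPM in the higher class, leaving out the genes of the rule, and from each list the 4 of highest level and those that passed. For diet, where fewer than 5 passed, they were the 5 of smallest p in each direction. Not all are printed, some withheld genes are not reported here, and Pcsk1n was named after its values were seen. Of 140 named genes 135 had a RefSeq position. Subsets by Fezf1 and Penk were chosen after their values were seen. Intervals from counts cover counting error only.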

Additional observations from a re-analysis of the deposited data

How the results depend on the processing

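The 187 members in 7 testable mice limit all comparisons, most of all diet, where 4 mice stand against 3. The genes apart from other glutamatergic neurons numbered 213, with 90 by DESeq2 and 35 with no mouse block, the fit that drops the pairing of both classes within a mouse. They numbered 124 (without high fat diet replicate 2) to 202 when 1 mouse was left out. Of 55 named genes DESeq2 kept 34 of its calls, and 0 turned direction under any setting. The genes apart from Trh neurons numbered 41, with 14 by DESeq2, 16 with at least 3 UMIs of Otp plus Sim1, 20 without barcodes holding a GABA gene UMI, 11 with no mouse block, and 18 (without control replicate 4) to 57 when 1 mouse was left out. The setting of at least 20 cells per class was not run there because too few mice remained.

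Diet called 0 genes in members, and 1 with no filter on low counts, Crabp1 (log2 difference 4.45, adjusted p = 0.026 by edgeR). The interaction called 0, with 1 at 20 cells or more per class and 0 to 2 when 1 mouse was left out. The difference in the share of members, high fat diet minus control, was −3.32 percentage points. It turned to 0.181 after thinning to 1000 UMIs and to 0.0262 over all barcodes that met the depth limits, and ran from −5.93 to −0.277 when 1 mouse was left out. Thinning left 0 to 3 members per mouse. The thinned means were 0.729% on control chow and 0.909% on the high fat diet (exact permutation p = 0.762). The ratio of UMIs per member turned from 0.767 to 1.16 in pool 2 alone, with 1 high fat diet mouse, and ran from 0.617 to 0.899 when 1 mouse was left out. The cause of these changes was not tested. No paired analysis by diet was possible because replicate numbers pair no mice across diets.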
